A study of Mus musculus with 2 samples.

Results

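Cytokines, chemokines and Toll-like receptors are the genes through which cells call for, and sense, inflammation. The 149 genes described here were taken by symbol from the 21887 protein-coding genes of the RefSeq annotation: every gene whose symbol begins with Ccl, Ccr, Cxcl, Cxcr, Il or Tlr followed by a digit. By role they were 37 chemokine ligands, 17 chemokine receptors, 37 interleukin ligands, 41 interleukin receptors and receptor subunits, 12 Toll-like receptors, and 5 genes for secreted inhibitors or the Il4i1 enzymes. H3K4me3, the trimethylated form of lysine 4 on histone H3 that marks active and poised promoters, had been mapped by chromatin immunoprecipitation and sequencing in sorted neurons of the mouse small intestine. The neurons were sorted as NOS1+, that is, carrying neuronal nitric oxide synthase, the enzyme of the inhibitory motor neurons that relax gut muscle. There was 1 H3K4me3 library and 1 input chromatin library from the same kind of cells, no treatment or genotype contrast, and no replicate. The strain, the age, the number of animals and the way in which the NOS1+ cells were labelled are not stated in the labels. The comparisons are therefore between genes within 1 peak list, they have no replicate check, and no test was made.

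Chemokines are small secreted proteins that guide leukocytes along gradients through G protein-coupled receptors of the Ccr and Cxcr families. Interleukins act through receptors built from a specific chain and a signalling chain that several cytokines share. Toll-like receptors recognise microbial molecules and, like the interleukin 1 receptor family, signal through a TIR domain, the adaptor MyD88 and the transcription factor NF-kB, while most other interleukin receptors use JAK kinases and STAT proteins. In the gut wall these genes are best known from leukocytes, epithelium and stromal cells, and enteric neurons are known to respond to several of their products.

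Most of the genes had no called peak, and those that had one divided by role. A peak overlapped the gene model, with 1 kb added to each side, at 59 of the 149 genes (39.6%), while 67.0% of all protein-coding genes had one. Among the roles the share was highest at the interleukin receptors, with 27 of 41 (65.9%). Toll-like receptors followed with 6 of 12, then inhibitors and enzymes with 2 of 5, interleukin ligands with 12 of 37 (32.4%), chemokine ligands with 10 of 37 (27.0%) and chemokine receptors with 2 of 17 (11.8%). Ligands of both kinds together had a peak at 22 of 74 genes, and receptors of all 3 kinds at 35 of 70. Within 1 kb of an end of the model a peak lay at 53 genes (35.6%), against a background of 61.4%. The other 6 genes with a peak (Ccl28, Il11, Il34, Il1r1, Il2ra and Il12rb1) carried it inside the model. The models of these 149 genes were short, with a median of 9.03 kb against 17.2 kb for all protein-coding genes, and the medians ran from 3.19 kb for chemokine ligands to 32.4 kb for interleukin receptors. The part of model length in the order of the roles was not tested. At an end of the model interleukin receptors again led with 24 of 41 (58.5%), and chemokine receptors were lowest with 2 of 17.

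**Figure D1:**
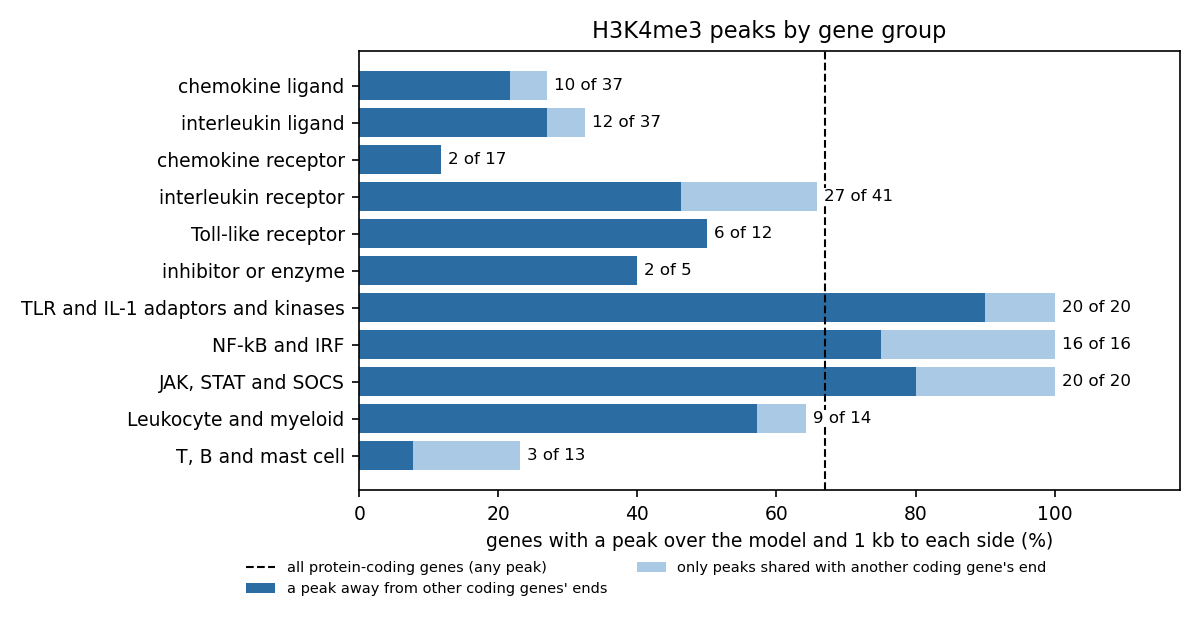
Horizontal bars give the percentage of genes in each group with a peak over the model and 1 kb to each side, with the counts at the bar ends; dark blue marks genes with at least 1 peak away from the ends of other protein-coding genes and light blue genes with only shared peaks. The dashed line is the 67.0% of all protein-coding genes, and of the groups drawn the 3 lists of signalling partners exceed it.

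Peaks at these genes were also narrower and lower-scored than at other genes with a peak. The widest peak per gene had a median of 1025 bp over the 59 genes and 1515 bp over all protein-coding genes with a peak. The highest score per gene, a value of the authors' peak caller whose scale is not stated and which serves here to rank peaks within the list, had a median of 54.4 against 152.6. A score in the upper 50% of the list (from 35.75) was reached by 33 genes (22.1%, background 57.8%), and one in the upper 25% (from 140.8) by 11 genes (7.38%, background 37.3%). Peaks of at least 1000 bp lay at 30 genes (20.1%, background 52.3%), 17 of them interleukin receptors. By role, the upper 50% of scores was reached by 16 of 41 interleukin receptors (39.0%), 5 of 12 Toll-like receptors (41.7%), 5 of 37 interleukin ligands (13.5%), 4 of 37 chemokine ligands (10.8%), 2 of 17 chemokine receptors (11.8%) and 1 of the 5 inhibitors and enzymes, each below the 57.8% of all genes. The interleukin receptors, whose share with any peak lay near that of all genes, also lay below it in the upper 25% of scores (7 of 41, 17.1%, against 37.3%) and for unshared peaks (19 of 41, 46.3%, against 55.3%).

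Some of these peaks lay at a second gene, so that they cannot be given to 1 of the 2. The 59 genes held 92 distinct peaks, of which 19 lay within 1 kb of an end of another protein-coding gene and 6 within 1 kb of an end of a noncoding gene or pseudogene. Every peak was shared with another protein-coding gene at 12 of the 59. Over all protein-coding genes this held for 2571 of the 14665 with a peak. That leaves 47 of the genes described here (31.5%, background 55.3%) with an unshared peak. These 2 percentages count genes without any peak in the total, so their difference is not a measure of sharing. Unshared means only that no end of another protein-coding gene lay within 1 kb. Such a peak may still lie inside another gene, or outside the model as at Ccr10. At 4 of those 47 (Tlr6, Ccr10, Il4i1b and Il17re) the highest-scored peak was a shared one and the unshared one was weaker. Of the 11 genes in the upper 25% of scores, 6 kept a place there by an unshared peak: Il6st, Il1rap, Il17rd, Il4ra and Il15ra among the receptors and Il15 among the ligands. The other 5 were Il4i1b, Ccl25, Tlr6, Il10rb and Il9r.

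The promoters themselves differed in base composition. RefSeq promoter sequences on GRCm38.p6, which has the coordinates of mm10, were listed for 115 of the 149 genes, with 139 start sites in all, each with 250 bases before and 50 after the start. CpG dinucleotides, whose density is known to go with H3K4me3 at promoters across cell types, numbered a median of 4 in the 300 bases at these 139 starts and 13 at all 21263 listed protein-coding starts. A peak covered 36 of the 139 starts (25.9%), against 54.3% of all listed starts. Counted by gene, 33 of the 115 had a covered start (28.7%, background 55.9%) and 39 a peak within 1 kb of a start (33.9%, background 63.0%). Covered starts had a median of 12.5 CpG and the 103 starts without a peak a median of 3. Within classes of CpG number the shares lay closer to those of all starts. With 0 to 4 CpG, 3 of 70 starts were covered (4.29%, background 4.76%). With 5 to 9 CpG it was 7 of 35 (20%, background 31.5%), with 10 to 14 CpG 10 of 15 (66.7%, background 72.3%) and with 15 or more 16 of 19 (84.2%, background 87.8%). The share in each of the 4 classes was below the background, furthest in the class of 5 to 9.

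**Figure D2:**
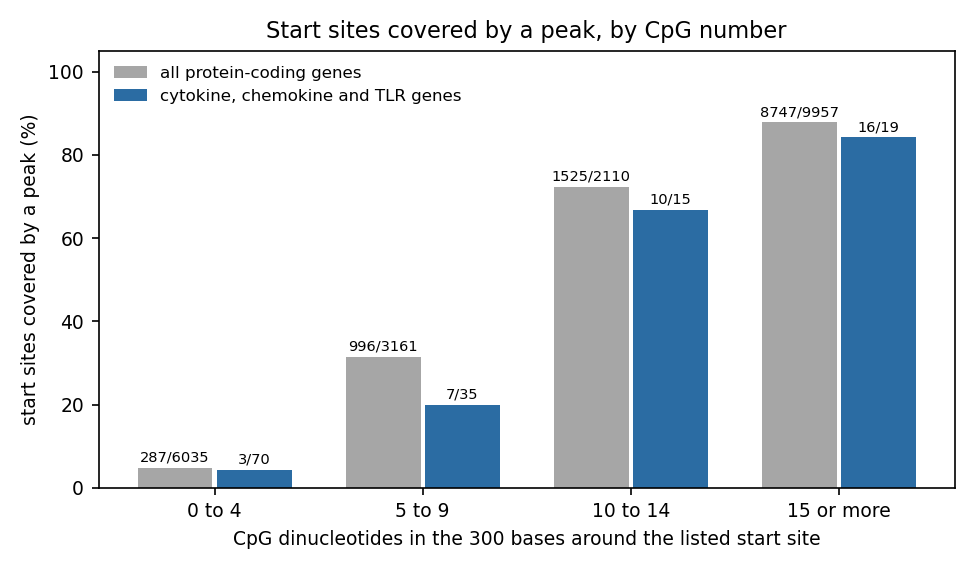
Bars give the percentage of listed start sites covered by a peak in 4 classes of CpG number in the 300 bases around the start, grey for all protein-coding genes and blue for the cytokine, chemokine and Toll-like receptor genes, with covered and listed starts above each bar. Both sets climb with CpG number, from 4.76% and 4.29% in the lowest class to 87.8% and 84.2% in the highest.

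The letters of 6 promoters illustrate that relation. They were picked as 3 CpG-rich promoters under a peak and 3 CpG-poor ones without, so they leave out the exceptions. In the window of the classes above, uncovered starts of Ccl21b, Il12a and Il1rapl2 hold 45, 16 and 16 CpG. Covered starts of Il1rl2, Il6 and Il18 hold 3, 3 and 1. Each is the 250 bases before the listed start, 5′ to 3′ on the strand of the gene, with every CpG in capitals. The first 3, of Il6st, Il1rap and Cxcr4, lay under peaks of 3344, 1823 and 2901 bp and hold 26, 30 and 19 CpG in these bases. The last 3, of Ccl3, Ccr2 and Il1b, had no peak over the gene and hold 2, 1 and 2. Their positions are chr13:112463820-112464069 (plus strand), chr16:26581455-26581704 (plus), chr1:128592300-128592549 (minus), chr11:83649379-83649628 (minus), chr9:124101933-124102182 (plus) and chr2:129371140-129371389 (minus).
Il6st: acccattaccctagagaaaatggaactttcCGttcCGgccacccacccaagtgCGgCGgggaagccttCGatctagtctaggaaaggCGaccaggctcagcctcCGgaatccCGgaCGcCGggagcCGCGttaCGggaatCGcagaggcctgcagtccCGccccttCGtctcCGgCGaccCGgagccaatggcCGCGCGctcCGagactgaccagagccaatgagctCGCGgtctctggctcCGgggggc
Il1rap: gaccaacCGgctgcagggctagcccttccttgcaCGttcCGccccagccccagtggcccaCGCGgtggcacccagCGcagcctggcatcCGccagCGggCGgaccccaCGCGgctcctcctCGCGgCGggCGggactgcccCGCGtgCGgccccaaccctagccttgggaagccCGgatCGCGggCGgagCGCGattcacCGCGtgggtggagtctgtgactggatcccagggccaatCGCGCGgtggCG
Cxcr4: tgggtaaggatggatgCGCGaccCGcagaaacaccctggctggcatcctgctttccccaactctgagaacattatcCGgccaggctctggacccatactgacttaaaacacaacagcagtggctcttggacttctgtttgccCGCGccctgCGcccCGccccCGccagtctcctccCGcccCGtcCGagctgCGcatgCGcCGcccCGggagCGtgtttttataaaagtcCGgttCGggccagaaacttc
Ccl3: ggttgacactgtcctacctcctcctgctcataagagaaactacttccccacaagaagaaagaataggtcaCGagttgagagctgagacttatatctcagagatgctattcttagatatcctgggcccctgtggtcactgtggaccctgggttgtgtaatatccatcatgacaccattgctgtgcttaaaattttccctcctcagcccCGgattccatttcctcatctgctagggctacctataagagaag
Ccr2: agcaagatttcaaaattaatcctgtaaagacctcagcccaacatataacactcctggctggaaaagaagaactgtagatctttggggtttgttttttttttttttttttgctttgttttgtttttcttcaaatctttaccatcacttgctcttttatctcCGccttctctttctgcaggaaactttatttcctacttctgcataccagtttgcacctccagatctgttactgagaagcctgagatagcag
Il1b: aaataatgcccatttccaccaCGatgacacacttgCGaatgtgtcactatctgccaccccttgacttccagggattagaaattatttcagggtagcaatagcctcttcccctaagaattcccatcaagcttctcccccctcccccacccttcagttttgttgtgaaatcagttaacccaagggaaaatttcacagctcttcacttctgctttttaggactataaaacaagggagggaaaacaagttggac

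Short motifs were counted on both strands of the same 300 bases, as a description of the letters and not of binding. TATAAA, the core of the TATA box, stood at 27 of the 139 starts (19.4%, against 12.6% of all listed starts). It was found at 11 of 33 interleukin ligand starts (33.3%) and 9 of 32 chemokine ligand starts (28.1%), but at 2 of 40 interleukin receptor starts (5%). GGGCGG, the GC box of the Sp1 family, stood at 18 of 40 interleukin receptor starts (45.0%), 7 of 32 chemokine ligand starts (21.9%) and 5 of 33 interleukin ligand starts (15.2%), against 46.2% of all listed starts. TTCNNNGAA, the palindrome that STAT proteins bind, stood at 17 of 139 (12.2%, against 7.69%). GGGAATTTCC with any base allowed between its GGGA and TTTCC, a form of the NF-kB site, stood at 7 of 139 starts (5.04%) and at 90 of all 21263 (0.423%). Each motif was counted by itself, so letters that fall in matches of more than 1 motif count for each.

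Among the interleukin receptors the highest score and the widest peak lay at chains that several cytokines share. Il6st encodes gp130, the signalling chain of interleukins 6 and 11 and of LIF-type cytokines, and its start lay under a peak of 3344 bp at a score of 242.0 (chr13:112463350-112466693). That score was the highest of the 149 genes. Il4ra, the chain common to the receptors of interleukins 4 and 13, had the widest peak of the 149, 3388 bp at a score of 174.2 (chr7:125551591-125554978). Il1rap, the accessory chain that the receptors for interleukins 1, 33 and 36 have in common, had a peak of 1823 bp at a score of 232.2 (chr16:26581158-26582980) and 3 weaker ones inside the model, with scores from 6.671 to 12.93. Il10rb, the second chain of the receptors for interleukins 10 and 22, had 1 peak of 1543 bp at a score of 168.7, which also lay at an end of Ifnar2, a chain of the type I interferon receptor. Il17ra, the chain that most receptors of the interleukin 17 family contain, had 1401 bp and 102.2. Not every shared chain had a peak, since none was called at Il2rb and Il2rg. Nor did shared chains all rank above specific ones, since Il17rd scored higher than Il4ra, Il10rb and Il17ra.

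Several specific chains stood beside the shared ones. Il17rd, a family member also known as Sef, which restrains FGF signalling, had a peak of 1729 bp at a score of 217.1 (chr14:27038803-27040531). Il15ra, which presents interleukin 15 to neighbouring cells, had 1595 bp and 170.0 (chr2:11705113-11706707). Il3ra, the specific chain for interleukin 3, had 1575 bp and 116.0, and Il6ra, the binding chain for interleukin 6, 1577 bp and 68.38. Il13ra1, which pairs with Il4ra, had 1025 bp and 41.86 on the X chromosome. These peaks all covered the listed start of the gene and lay at no other protein-coding gene's end. Il11ra1, the binding chain for interleukin 11, had a peak of 1415 bp at a score of 119.5 that covered its start but also reached an end of Galt.

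The interleukin 1 receptor genes stand in a row on chromosome 1 (chr1:40084692-40551707), and the mark was uneven along it. Il1r1, the signalling receptor for interleukin 1, had no peak at an end of its model but 2 inside, each over a listed start: 319 bp at a score of 6.174 and 1226 bp at 89.89 (chr1:40266322-40267547). Il1rl2, the receptor for interleukin 36, had 1675 bp and 38.82, and Il1r2, a decoy receptor that binds interleukin 1 without signalling, 763 bp and 23.64. Where Il1rl1, the receptor for interleukin 33, ends and Il18r1, the binding chain for interleukin 18, begins, a single peak of 193 bp scored 3.167 and could not be given to either. Il18rap, the last gene of the row, had none.

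Il1rapl1, a relative of the interleukin 1 accessory chain that organises synapses in the brain, differed from the others in shape. Its peak was 3066 bp wide, the third widest among the 149 genes, at a score of 31.49 (chrX:88113322-88116387). Its width stood at percentile 94.34 of all genes with a peak and its score at percentile 12.47. Cxcr4 had the same combination in weaker form, at percentiles 93.0 and 23.04. The relative Il1rapl2, also known from neurons, had no peak although its listed start holds 16 CpG.

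The interleukin 17 receptor genes gave more than 1 example of shared peaks. Il17re and Il17rc lie next to each other on chromosome 6, and the peak of 1131 bp at a score of 56.61 between them covered the start of Il17rc and lay within 1 kb of the far end of Il17re. At the start of Il17re itself the nearest peak began 43 bp after the start and was 404 bp wide, at a score of 5.499. Il17rc held 2 further peaks, with scores of 73.52 and 87.23, at its other end, where Creld1 begins. Il17rb, the receptor chain for interleukin 25, had 1696 bp at a score of 29.06 that covered its own start and that of Chdh.

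The remaining receptors had narrow peaks. Il9r, the receptor for a T cell growth factor, had 3 narrow peaks, the strongest 520 bp at a score of 143.0. They lay within 1 kb of the upper end of the Il9r model, 4715 bp or more before the listed Il9r start. All were also at an end of Snrnp25. Il27ra had 547 bp and 28.94, at an end of Rln3. Il20ra had 365 bp and 23.81, and Il22ra1, the epithelial receptor chain for interleukin 22, 384 bp and 8.100, both over the listed start. Il2ra, the high-affinity chain of the interleukin 2 receptor on T cells, had a single peak of 270 bp at a score of 11.07 inside the model, 21398 bp after its start. Il12rb1 had 385 bp and 9.393 inside its model, and Il10ra 3 peaks of 154 to 303 bp with scores of 5.073 to 8.232. No peak was called at 14 receptor genes: Il2rb, Il2rg, Il5ra, Il7r, Il11ra2, Il12rb2, Il13ra2, Il18rap, Il1rapl2, Il20rb, Il21r, Il22ra2, Il23r and Il31ra. Il2rg encodes the common gamma chain of lymphocyte cytokine receptors, and Il2rb a chain that interleukins 2 and 15 have in common.

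Interleukin ligands had wide or high-scored peaks at a few genes. Il15, which maintains natural killer and memory T cells and is made widely, had 1816 bp at a score of 154.5 (chr8:82401553-82403368), the one ligand of this kind in the upper 25% of scores. Il7, the stromal survival factor of lymphocytes, had 1224 bp and 104.1 (chr3:7612546-7613769). Il17d had 2 peaks, 501 bp (54.08) over its start and 964 bp (93.07) beginning 373 bp after it. Il25, a tuft cell cytokine, had 961 bp and 54.91, over the start of the neighbouring gene Cmtm5. Il16, a chemoattractant cut from a larger precursor, had 1323 bp and 29.95 at the upper end of its model, 9603 bp before the nearest listed start.

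Peaks at the other interleukin ligands were under 1000 bp. Il33, an alarmin held in the nucleus of barrier and stromal cells, had 3: one of 250 bp at a score of 3.109 over its first listed start, one of 389 bp (10.43), and one of 491 bp (54.36) that began 2595 bp after its second listed start. Il18, an inflammasome product, had 688 bp and 31.68 over its own start and that of Bco2. The Il18 start holds 1 CpG, the lowest number among the covered starts of the 149 genes. Il11 had 381 bp and 22.30, Il12b 182 bp and 14.14 at 947 bp before its start, and Il34, an alternative ligand of the macrophage receptor Csf1r, 154 bp and 6.094 inside the model. Il17b had 375 bp and 16.37, next to an end of the noncoding gene Gm38165. Il6, the acute-phase cytokine, had 3 peaks of 153 to 207 bp with scores of 3.870 to 5.288, the first over its start. The 25 interleukin ligand genes with no peak were Il1a, Il1b, Il2, Il3, Il4, Il5, Il9, Il10, Il12a, Il13, Il17a, Il17c, Il17f, Il19, Il20, Il21, Il22, Il23a, Il24, Il27, Il31 and the interleukin 36 and 38 genes Il1f6, Il1f8, Il1f9 and Il1f10.

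Of the 5 inhibitors and enzymes, Il4i1b and Il18bp had a peak. Il4i1b, one of a pair of overlapping genes named for an amino acid oxidase, had 2649 bp at a score of 224.8, but that peak also covered the starts of Nup62 and Atf5, and its 2 unshared peaks scored 9.678 and 4.847. Il18bp, the soluble trap of interleukin 18, had 317 bp and 13.63, beginning 596 bp after its start. The interleukin 1 receptor antagonist Il1rn, its relative Il1f5 and Il4i1 had none.

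Of the chemokine ligands, Cxcl12 had the highest-scored unshared peak. CXCL12 is a stromal chemokine that also guides migrating neurons and progenitors through CXCR4. Its peak was 2031 bp wide with a score of 115.3 (chr6:117167910-117169940), reached from 625 bp before to 1405 bp after the start, and stood between 3 fragments of 153 to 213 bp with scores of 3.987 to 7.630. Ccl25, the chemokine that draws lymphocytes to the small intestine, had a higher score, 220.3, over 2628 bp, but its peak also covered the start of Elavl1, the gene of the RNA-binding protein HuR. Cxcl16, a membrane-bound chemokine, had 1572 bp and 77.95 at an end of Zmynd15. Ccl27a, a skin chemokine gene next to Il11ra1, had 3 peaks of 326 to 453 bp with scores from 17.87 to 68.26. Cxcl14, known from epithelium and stroma, had 943 bp and 14.02, and Ccl28, a mucosal chemokine, had 3 peaks inside its model with a highest score of 23.13, none nearer than 7810 bp to its listed start.

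A run of neutrophil and interferon chemokines on chromosome 5 had small peaks of graded size. Cxcl1 had 842 bp at a score of 31.47 over its start, and Cxcl2 a peak of 169 bp (9.393) over its start and one of 245 bp (6.146) just before it. Cxcl5 had 506 bp and 12.21. Cxcl3 and Cxcl15, which stand between them (chr5:90759298-90905938), had none. Cxcl10, an interferon-induced ligand of CXCR3 in another row of that chromosome, had 460 bp and 20.19 over its start, while its neighbour Cxcl9 had none. The starts of Cxcl1, Cxcl2 and Cxcl3 each hold 1 match to the NF-kB-type motif, the same letters GGGAATTTCC in all 3, at 71, 97 and 73 bases before the start. Those 3 starts hold 10, 11 and 10 CpG in 300 bases. The 250 bases before each start are given here 5′ to 3′ with the match in capitals, because the same match stood under a peak in the first and the second and under none in the third. Their positions are chr5:90890995-90891244, chr5:90903649-90903898 and chr5:90785851-90786100, on the plus strand.
Cxcl1: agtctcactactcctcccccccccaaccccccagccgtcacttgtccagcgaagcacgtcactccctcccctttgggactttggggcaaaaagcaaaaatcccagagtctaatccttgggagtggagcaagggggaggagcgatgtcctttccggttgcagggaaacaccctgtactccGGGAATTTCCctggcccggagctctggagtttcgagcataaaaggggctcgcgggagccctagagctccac
Cxcl2: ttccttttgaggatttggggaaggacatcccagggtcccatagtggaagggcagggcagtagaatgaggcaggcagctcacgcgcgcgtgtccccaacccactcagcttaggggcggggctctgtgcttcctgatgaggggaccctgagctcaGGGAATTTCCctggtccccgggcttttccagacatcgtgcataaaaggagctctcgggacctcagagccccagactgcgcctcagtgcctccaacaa
Cxcl3: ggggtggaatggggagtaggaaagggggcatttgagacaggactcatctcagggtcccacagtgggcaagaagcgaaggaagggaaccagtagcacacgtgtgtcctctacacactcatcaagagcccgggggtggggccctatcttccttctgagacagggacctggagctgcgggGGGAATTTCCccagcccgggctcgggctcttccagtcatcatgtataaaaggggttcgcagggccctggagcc

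The other 4 genes with this match were Tlr3 and Il6, whose starts were covered with scores of 109.5 and 5.288, and Il16 and Ccr3, whose matching starts were not. In all, 4 of the 7 matching starts of these genes were covered. Over all listed starts, 45 of the 90 with the match were covered.

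No peak was called at the other 27 chemokine ligand genes. These include every gene of the 2 rows of Ccl genes on chromosome 11, Ccl2, Ccl7, Ccl11, Ccl12, Ccl8 and Ccl1 (chr11:82035577-82179812) and Ccl5, Ccl9, Ccl6, Ccl3 and Ccl4 (chr11:83525778-83664683), which encode attractants of monocytes, eosinophils and T cells. Also without a peak were Ccl17, Ccl19, Ccl20, Ccl21a, Ccl21b, Ccl21c, Ccl21d, Ccl22, Ccl24, Ccl26, Ccl27b, Cxcl3, Cxcl9, Cxcl13, Cxcl15 and Cxcl17. Ccl21a to Ccl21d, Ccl27a and Ccl27b, and Il11ra1 and Il11ra2 are near-identical copies on chromosome 4. No source used here says how reads that fit more than 1 place were treated, so absence of a peak at such a copy is uncertain.

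Chemokine receptors were the emptiest group, with Cxcr4 as the clear exception. The single peak of Cxcr4, the CXCL12 receptor that steers neural crest cells and neurons as well as leukocytes, was 2901 bp wide with a score of 70.81 (chr1:128590585-128593485). It reached from 1186 bp before to 1714 bp after the start. Ccr10, the receptor for Ccl27 and Ccl28 chemokines, had 3 peaks, of which the first (1147 bp, 82.03) lay at an end of Plekhh3 and the second (1566 bp, 36.92) at an end of Cntnap1. The third, of 673 bp at a score of 20.19, was unshared but lay outside the gene model. No peak was called at the other chemokine receptors, among them Ccr2, the monocyte receptor for Ccl2, Ccr7, which guides lymphocytes and dendritic cells to lymph nodes, Ccr9, the receptor for Ccl25, and Cxcr2, the neutrophil receptor for Cxcl1.

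The mark was least frequent where these genes stand in rows. Of the 49 genes in rows of 3 or more, counted where the next of the 149 genes followed within 200 kb, 10 had a peak (20.4%, background 67.0%). Of 34 genes in pairs 11 had one (32.4%), and of 66 standing alone 38 (57.6%), so that all 3 shares lay below the background. Of the 10 rows 7 held no peak. These were both Ccl rows on chromosome 11, a row of chemokine receptors, Il24, Il20, Il19 and Il10 on chromosome 1, Il4, Il13 and Il5 on chromosome 11, the row of interleukin 36 genes with Il1rn on chromosome 2, and Ccl27b, Il11ra2, Ccl19 and Ccl21a on chromosome 4. The last consists partly of near-identical copies. Most rows hold chemokine genes or interleukin ligands, whereas the row of interleukin 1 receptor genes had a peak at 5 of 6, and an unshared one at 3. Standing in a row and role thus go together here and cannot be told apart.

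Among the 12 Toll-like receptors the peaks lay at 6. Tlr2, which senses bacterial lipoproteins, had 1185 bp at a score of 129.8 (chr3:83840778-83841962), from 354 bp before to 830 bp after its start. Tlr3, the endosomal sensor of double-stranded RNA, had 1359 bp and 109.5 (chr8:45409482-45410840), from 460 bp before to 898 bp after the start. Tlr5, the flagellin receptor, had 910 bp and 64.13 over its start (chr1:182954568-182955477) and a second peak of 879 bp at a score of 55.97 inside the model. Tlr4, the receptor for lipopolysaccharide, had 1767 bp and 50.33 at the lower end of its model (chr4:66827546-66829312) and a fragment of 158 bp. These 4 had unshared peaks with scores in the upper 50% of the list.

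The other 2 Toll-like receptors with a peak were less clear. Tlr6, the partner of Tlr2 in sensing diacylated lipopeptides, had the highest score of the family, 199.9 over 1848 bp. That peak lay at the upper end of the Tlr6 model, 9167 bp before the nearest listed Tlr6 start, but also covered the start of Fam114a1. The unshared Tlr6 peak, 5 bp after a listed start, was 236 bp wide with a score of 7.179. Tlr9, the sensor of unmethylated CpG DNA, had 642 bp and 20.46 at 3457 bp after its start, with none over the start. No peak was called at Tlr1, which neighbours Tlr6, at Tlr7 and Tlr8, the sensors of single-stranded RNA on the X chromosome, or at Tlr11, Tlr12 and Tlr13. The listed start of Tlr9 holds 0 CpG and those of Tlr2, Tlr3 and Tlr5 hold 11, 10 and 8.

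Where a peak covered a listed start it usually reached further into the gene than before it. This held for 26 of the 36 covered starts of these genes (72.2%), and for 81.5% of all covered starts. The median reach was 343 bp before and 778.5 bp after the start, against 473 and 1019 bp over all covered starts. The longest reach into a gene was 2707 bp, at Il4ra, and the longest before one 1798 bp, at Ccl25, where Elavl1 begins. In all, 33 of the 59 genes with a peak had it over a listed start of their own, 12 had a listed start that no peak covered, and for 14 no start was listed. Of the 12 genes with only shared peaks, 5 had their own start covered (Ccl25, Il18, Il11ra1, Il17rc and Il17rb).

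**Figure D3:**
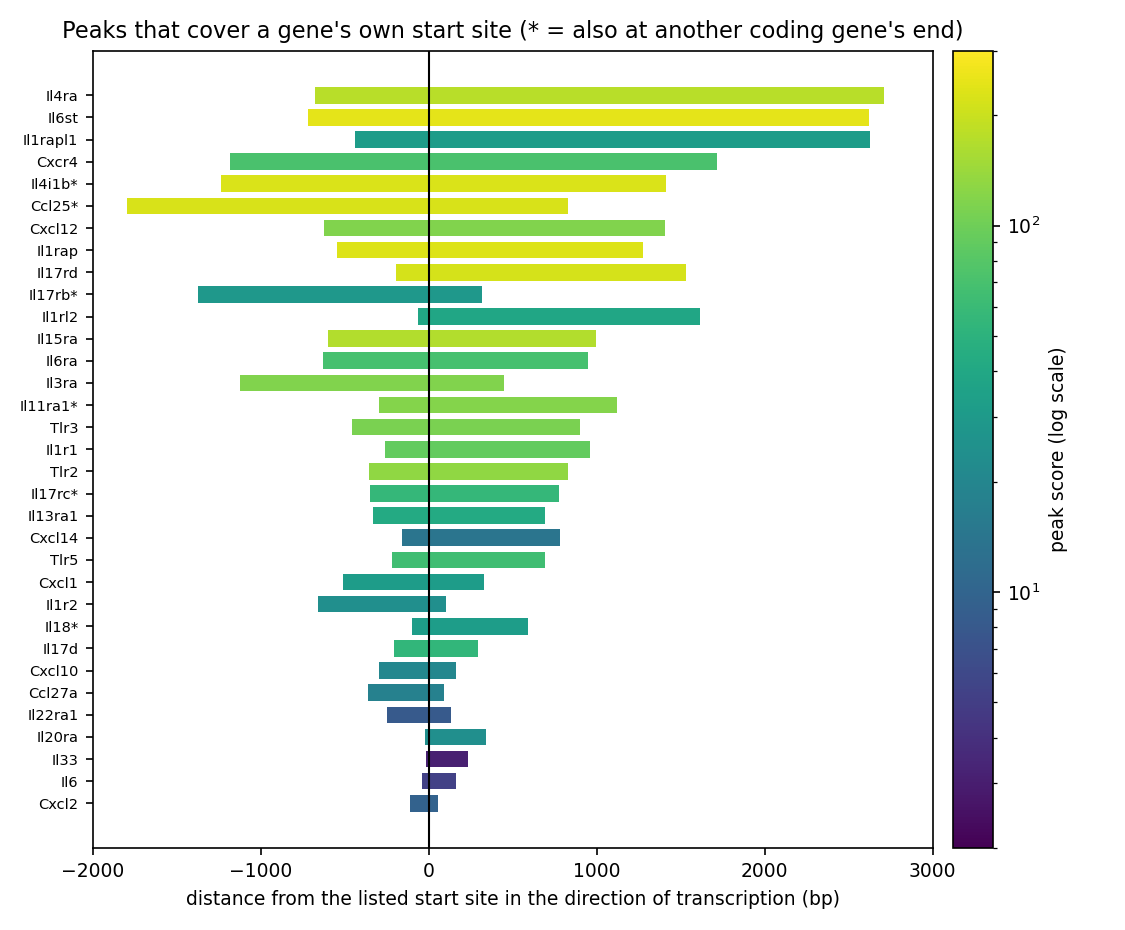
Each bar spans the widest peak that covers a listed start site of 1 of the 33 genes, placed by distance from that start in the direction of transcription (bp), sorted by width and coloured by score on a log scale; an asterisk marks peaks also within 1 kb of another protein-coding gene's end. Il4ra (2707 bp), Il1rapl1 (2626 bp) and Il6st (2623 bp) reach furthest into the gene, Il1rapl1 at a lower score than the other two, and Cxcl2, Il6 and Il33 have the shortest bars.

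Ligands and receptors were also set side by side in 61 known pairs formed by 47 ligands and 47 receptor chains. Both sides had a peak in 12 pairs, the receptor alone in 18, the ligand alone in 11 and neither in 20. With shared peaks left out, the counts were 7, 14, 10 and 30. Such counts also depend on how often each role had a peak at all. That share was 65.9% for interleukin receptors and 32.4% for interleukin ligands. It was 27.0% for chemokine ligands and 11.8% for chemokine receptors. Whether the pair counts differ from what these shares alone would give was not tested. The 7 pairs in which both sides had an unshared peak were Cxcl12 with Cxcr4, Ccl28 with Ccr10, Il6 with Il6ra and with Il6st, Il33 with Il1rap, Il11 with Il6st, and Il15 with Il15ra. The unshared Ccr10 peak lay outside the Ccr10 model, and no Ccl28 peak lay nearer than 7810 bp to the listed Ccl28 start. Scores of 50 or more on both sides were found in 3 of the 7: Il15 (154.5) with Il15ra (170.0), Cxcl12 (115.3) with Cxcr4 (70.81), and Il33 (54.36) with Il1rap (232.2). That Il33 peak lay inside the model, 2595 bp after a listed start, and the Il33 peak over a listed start scored 3.109. Pairs with a receptor peak only include interleukins 4 and 13 with Il4ra, interleukin 1 with Il1r1 and Il1rap, interleukin 17A with Il17ra and interleukin 3 with Il3ra. They also include receptors known from leukocytes, such as Il2ra on T cells (11.07), and Il10ra (8.232) and Il12rb1 (9.393). Il9r and Il27ra were among them too, with peaks shared with another gene's end. In pairs with a ligand peak only the receptors were mostly those of leukocytes, such as Cxcr2 for Cxcl1, Cxcl2 and Cxcl5, Cxcr3 for Cxcl10, Cxcr6 for Cxcl16, Ccr9 for Ccl25, and Il7r for Il7. The peaks of Cxcl16 and Ccl25 were shared with another gene's end, so their pairs had an unshared peak on neither side. Pairs that share a chain are not independent of each other.

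Genes of the proteins that work with these receptors had a peak more often than the receptors. All 56 genes of 3 lists of signalling partners had a peak (background 67.0%), and 52 had a score in the upper 50% (92.9%, background 57.8%). An unshared peak lay at 46 of them (82.1%, background 55.3%), and 10 had only shared peaks. In the list of 20 adaptors and kinases of Toll-like and interleukin 1 receptors the median score was 131.0, with the adaptor Myd88 at 206.2 over 3684 bp and Irak4 at 243.3, both shared with another gene's end, and Traf6 at 185.7. Lbp, which delivers lipopolysaccharide to CD14 and is made mainly by liver, was lowest at 5.499. The 16 genes of the NF-kB and interferon regulatory factor list had scores from 77.46 to 259.9 with a median of 185.0. The highest, at Chuk, was shared with another gene's end. Nfkbia, the inhibitor that NF-kB induces, had 207.8 over 3362 bp. In the list of 20 JAK, STAT and SOCS genes the median was 160.0. Socs3, the feedback inhibitor of gp130, had 188.0 over 3059 bp and Stat3 201.9, while Stat4 (12.73) and Ptpn6 (4.138), both best known from leukocytes, were lowest. Of 40 further cytokine and chemokine genes outside the symbol rule, 28 had a peak (70.0%), a share near the 67.0% of all genes. Fewer than in the background had a score in the upper 50% (19, 47.5%, against 57.8%) or the upper 25% (7, 17.5%, against 37.3%). Scores ran from 3.842 at Tnf to 222.1 at Ifngr2, with Lifr, the gp130 partner for LIF, at 215.9 and Csf1 at 212.0. The 12 without one were Xcl1, Ackr1, Ackr2, Ifnb1, Ifng, Ppbp, Pf4, Cx3cr1, Osm, Csf2, Csf3 and Csf2rb.

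**Figure D4:**
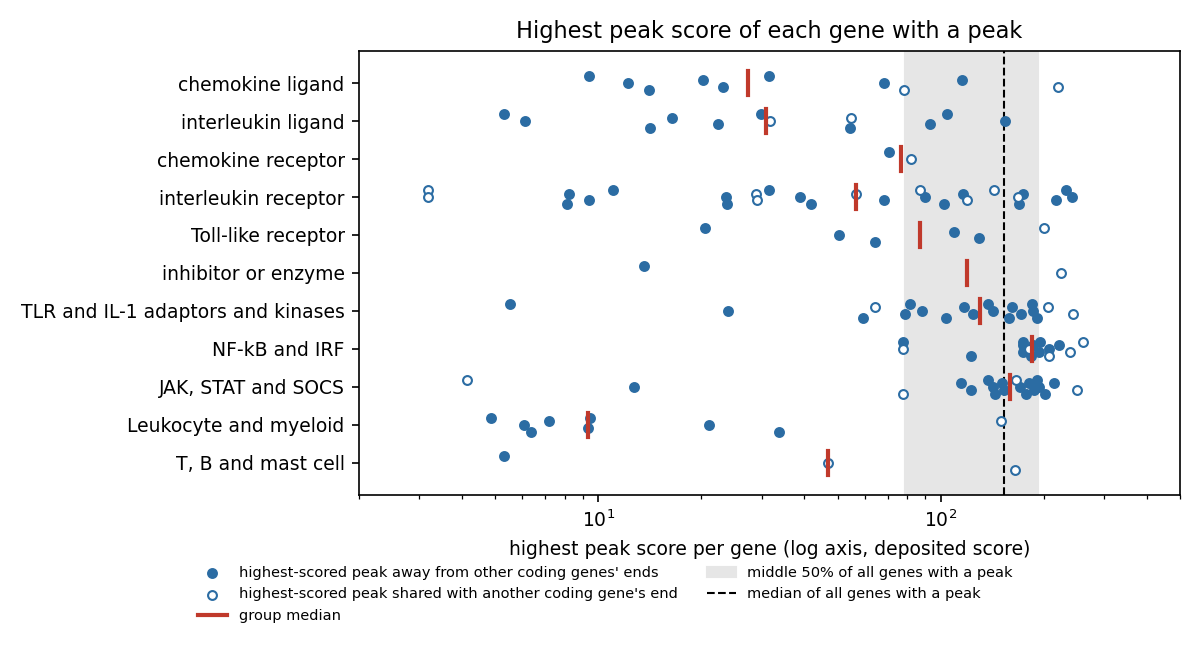
Each point is a gene with a peak, placed by its highest peak score (log axis) in 11 groups; filled points have their highest-scored peak away from other protein-coding genes' ends and open points share it, red lines are group medians, and the grey band and dashed line are the middle 50% and the median (152.6) of all genes with a peak. Medians of the chemokine and interleukin ligands (27.3 and 30.8) lie far left of the band, and those of the 3 lists of signalling partners (131.0, 185.0 and 160.0) lie inside it.

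Markers of other cells of the gut wall were read from the same list. Of 14 leukocyte and myeloid markers 9 had a peak (64.3%), a share near the 67.0% of all protein-coding genes, with a median score of 9.316 against 152.6. The highest, Cd68 (149.8), was shared with another gene's end, and the next was Spi1 at 33.68. Itgam, Itgb2, Adgre1, Aif1 and Cx3cr1 had none. Of 13 T, B and mast cell markers found in the annotation, 3 had a peak (Cd4, Cd79a and Cd3d), shared at Cd4 and Cd79a and with a score of 5.288 at Cd3d. All 10 enteric glial markers had a peak (median score 94.1), as did all 10 smooth muscle (26.0) and all 10 fibroblast and interstitial cell markers (29.8), 8 of 10 epithelial ones (19.5) and 6 of 10 endothelial ones (14.6). Among the epithelial markers Epcam and Lgr5 had the highest score, 32.93, and Vil1 and Krt20 had no peak. All 15 pan-neuronal genes had a peak, with a median of 38.8. Of 10 genes of nitrergic neurons 8 had a peak, with a median of 54.4, from 4.668 at Gal to 146.8 at Etv1, and none was called at Vip and Cartpt. Nos1, the gene of the sort and one of the 8, had none at an end of its model and 1 of 183 bp at a score of 13.01 inside. In bulk chromatin few cells with a strong mark and many with a weak one cannot be told apart. The part of glia, muscle, epithelium, endothelium, stromal cells or leukocytes in any of these peaks was not tested.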

How the data were processed

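H3K4me3 ChIP-seq was done on sorted NOS1+ small intestinal neurons, in 1 library, with 1 input library. The authors' deposited peak list holds 29924 peaks with a position and a score. MACS2 called them from a paired-end library, per the file headers. BWA, Picard and MACS2 and build mm10 stand in the submitters' processing notes, without roles or versions. No source used here gives the threshold, the duplicate handling or the scale of the deposited score. The file holds no read counts, so depth is unknown; low depth splits or loses weak peaks first.

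Gene models came from RefSeq (GRCm38.p6), start sites from the RefSeq promoter table. Peaks were assigned to every gene whose model, extended by 1 kb on each side, they overlapped by 1 bp or more. A peak was shared when it also lay within 1 kb of an end of another protein-coding gene. The genes, lists, roles and pairs were chosen with earlier results of these data known. Genes were named with values where their score was in the upper 50%, their peak was at least 1000 bp wide or shared, they were among the 6 highest of their role, were Toll-like receptors, or stood in a pair with a peak; others with a peak are named after their values were seen. Some items are not reported here. Other windows, score cuts, overlaps and start-based assignment were tried as alternatives. Python 3.11.15, numpy 2.4.6 and pandas 2.3.3 were used. The overlap code was tested on simulated data: 200 of 200 simulated peaks were found at their gene.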

Additional observations from a re-analysis of the deposited data

How the results depend on the processing

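Among the 50% of peaks with the highest scores 33 of the 149 genes had a peak (22.1%, all protein-coding genes 57.8%), 31 at an end of the model and 22 unshared, with a median width of 1566 bp while the median score was 104.1. Among the 25% with the highest scores these counts were 11 (7.38%, against 37.3%), 11 and 6, with 1823 bp and 199.9; there the medians lay above those of all protein-coding genes, 1689 bp and 188.8. Within 1 kb of a listed start 39 of 115 genes had a peak (33.9%, against 63.0%). Peaks that cover a listed start, a setting chosen after seeing the data, left 33 genes over the model or at an end (28.7%, against 55.9%) and 27 unshared. Windows of 500 bp or 2500 bp, the gene model alone, at least 50% of the peak inside, merging of peaks closer than 1 kb and, chosen after seeing the data, peaks at least 300 bp wide moved none of the 5 counts and medians by more than 1.5 times. With noncoding ends counted as shared, also chosen after seeing the data, the unshared count was 44. Under these windows, overlaps, merging and width filter the count over the model ran from 52 to 62. With windows of 2500 bp Il1a, Il13 and Cxcr5 gained a peak. Il1rl1 and Il12b lost theirs with windows of 500 bp or the model alone, Il25 with the model alone, and Il12b with at least 50% of the peak inside. Peaks under 300 bp were the only ones at Il6, Cxcl2, Il2ra, Il34, Il18r1, Il1rl1 and Il12b; without Il6, 2 of the 7 pairs with unshared peaks on both sides are lost. With peaks merged 13 genes became wider by more than 1.5 times: Ccl27a, Il6, Cxcl2, Il17rc, Il4i1b, Il16, Il10ra, Il9r, Ccr10, Il25, Il17d, Il1rap and Il33. No paired analysis was possible because there was 1 H3K4me3 library. With 1 library and unknown depth, the absence of a peak does not show the absence of the mark.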
